A study of Saccharomyces cerevisiae with 35 samples.

Results

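The genes described here are those whose mRNA rose within 30 min of NaCl addition in the laboratory yeast strain BY4743 and was back near its starting level by 3 h. They were chosen from read counts scaled to a library total of 1000000 (CPM), averaged as log2(CPM + 1) over the BY4743 replicates. A member had a mean difference of 1.5 or more between 30 min and T0, a difference of 0.5 or less between 3 h and T0, and a mean of 10 CPM or more at 30 min. Of 6717 genes in the table, 90 met the rule. A further 499 genes met its early part but stayed above 0.5 at 3 h, so that 15.3% of the 589 genes that rose early in BY4743 returned. Because BY4743 values chose the members, they are given below as a description, and the tests concern the course of the same genes in 3 wild strains, whose libraries the rule did not use.

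The study profiled the RNA of 4 diploid Saccharomyces cerevisiae strains grown in rich medium (YPD) at 30 °C, before NaCl (T0), then 30 min and 3 h into growth with 0.7 M NaCl. BY4743 is the laboratory strain, MATa/α his3Δ1/his3Δ1 leu2Δ0/leu2Δ0 LYS2/lys2Δ0 met15Δ0/MET15 ura3Δ0/ura3Δ0. The wild strains were BC187 from a vineyard, NCYC3290 of the West African lineage and YPS128, a North American oak isolate, and each strain stands for its lineage alone. Every strain and time had 3 replicates, for which the strains were grown in parallel, except YPS128 at 30 min with 2.

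Yeast cells in high NaCl lose water and take up sodium, and the Hog1 kinase, the general stress factors Msn2 and Msn4 and, for chaperone genes, the heat shock factor Hsf1 raise a large set of mRNAs. Much of that rise is a pulse: mRNAs overshoot within the first hour and settle to a lower level as cells adapt. Chaperones such as Hsp90 and the J-domain proteins that direct Hsp70 refold, hold or disaggregate damaged proteins, and Hsf1 binds heat shock elements ahead of their genes.

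Libraries held 3629637 to 5866906 counts each. No BY4743 library (0 of 9) had a count for URA3 or LEU2, which that strain lacks, while the 26 wild libraries had at least 143 and 209. One library stood apart: in replicate 1 of BY4743 at 30 min, 81 genes of 10 CPM or more were at least 4 times above both other replicates on the CPM + 1 scale, against 0 in the other 2 libraries of that group and 0 in any library of the other groups of 3. Of the members, 13 met this ratio and are described below as high in 1 library only, whether or not the other 2 also rose. For the other 77 the ratio of the highest to the next library did not pass 2.40. Results are therefore given for the 90 genes and, where it matters, for these 77. In bulk RNA, fewer responding cells and a smaller response in each cell cannot be told apart. Reads of all strains were aligned to the S288c reference. Between strains, a lower level and poorer alignment of a wild strain's own sequence therefore cannot be told apart.

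**Figure D1:**
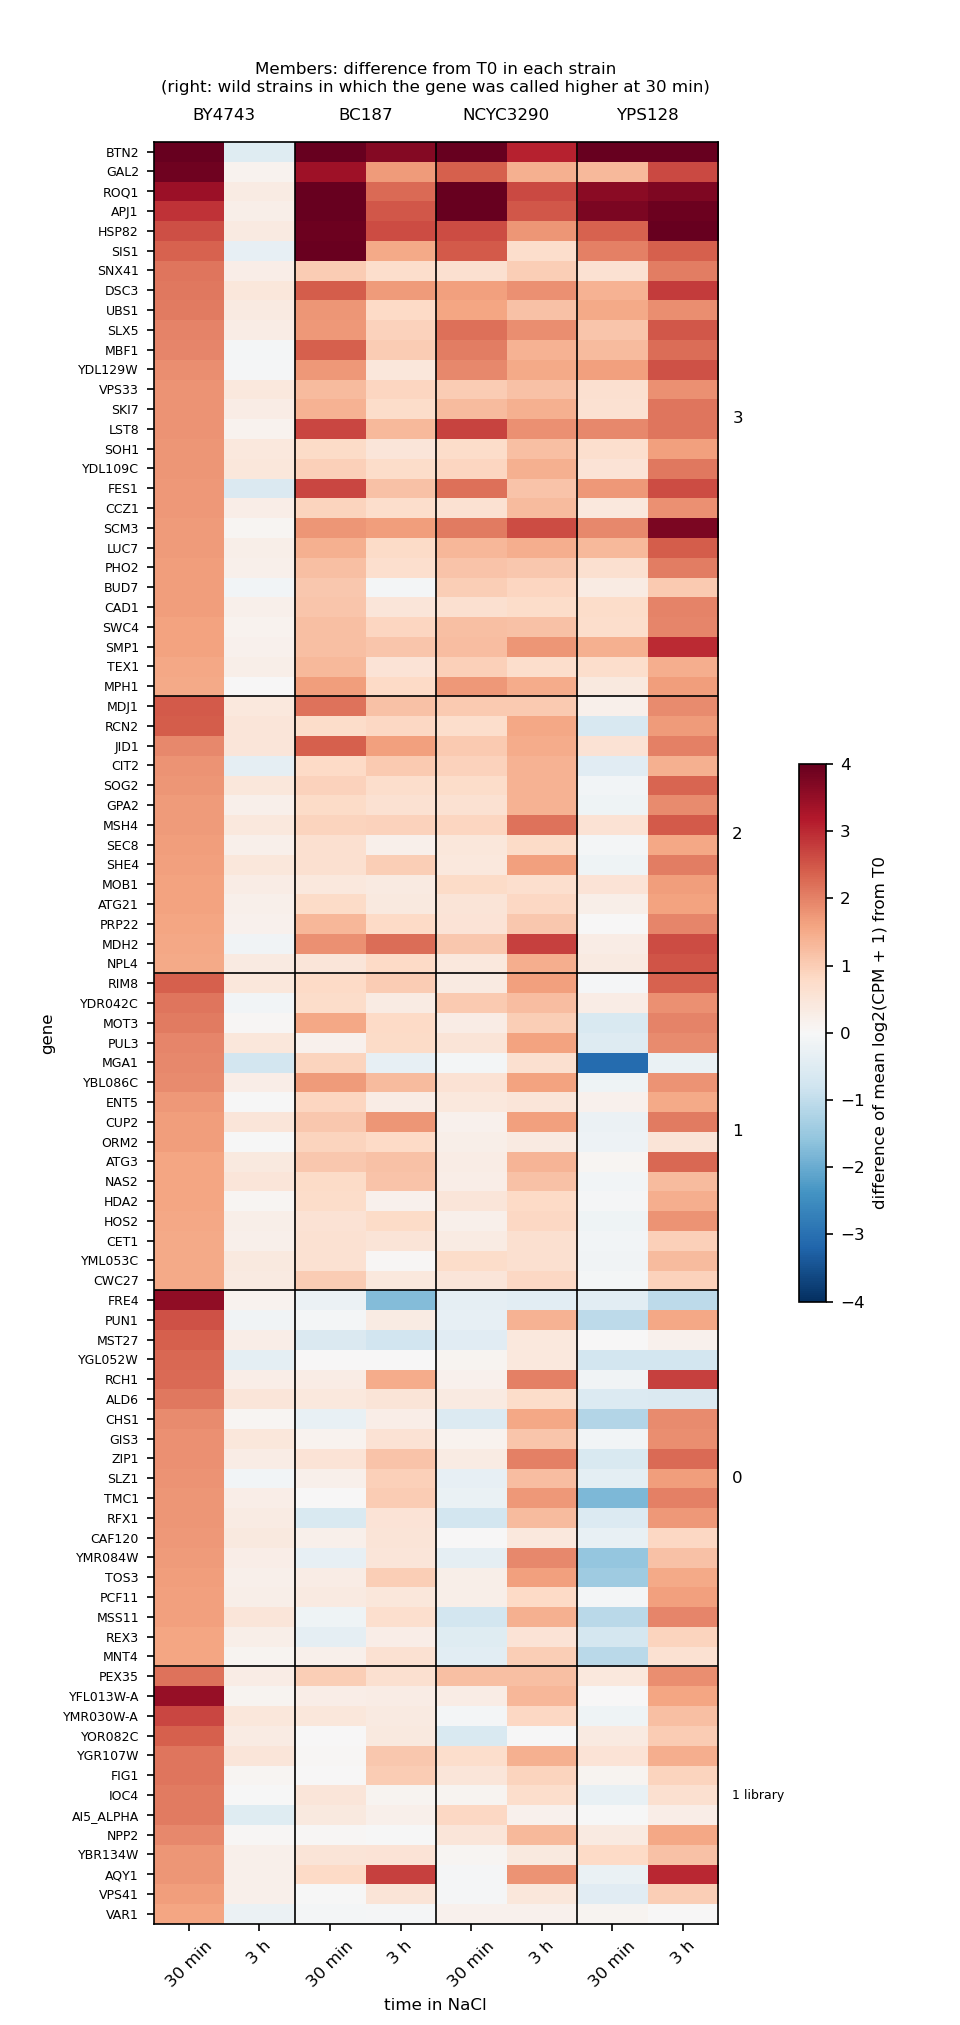
Each row is one of the 90 members and each column a strain and time, coloured by the difference of mean log2(CPM + 1) from that strain's T0 (colours saturate at 4 and -4). Rows are grouped by the number of wild strains in which the gene was called higher at 30 min (28 genes in 3 strains, 14 in 2, 16 in 1 and 19 in 0), with the 13 genes that were high in 1 BY4743 library only at the bottom.

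In BY4743 the members rose by a median of 1.77 at 30 min on the log2(CPM + 1) scale, from 1.51 to 4.05, against a median of 0.26 over all detected genes. At 3 h their median difference from T0 was 0.22, against 0.15 over all detected genes, and 18 members were below their T0 mean. All 3 libraries at 30 min were above all 3 at T0 for 83 members and above all 3 at 3 h for 78, and the 3 h range overlapped the T0 range for 81. By culture, the median rise of the members was 2.05 in replicate 1 and 2.07 in replicate 2 but 1.32 in replicate 3. Members just inside the early limit were CWC27 at 1.51 and NPL4 at 1.52, and just outside was KSP1 at 1.499. At the late limit, MSS11 at 0.499 was inside and CUB1 at 0.503 outside. At the abundance limit, CUP2 at 14.1 CPM was inside and YLR255C at 8.44 CPM outside.

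The membership moved with the BY4743 replicates and the settings of the rule. Without replicate 3 the rule returned 266 genes, 85 of them members. Without replicate 1 it returned 66 genes, 52 of them members, and without replicate 2 it returned 91, 61 of them members. With libraries scaled by TMM factors (trimmed mean of M values, edgeR's normalisation, which discounts a few strongly changed genes) in place of totals, 82 genes were returned, 51 of them members. A pseudocount of 5 in place of 1 returned 85 genes, 60 of them members, and one of 0.5 returned 92, 83 of them members. A minimum of 1 CPM returned 114 genes with all 90 members, and one of 30 CPM returned 76, all of them members.

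**Figure D2:**
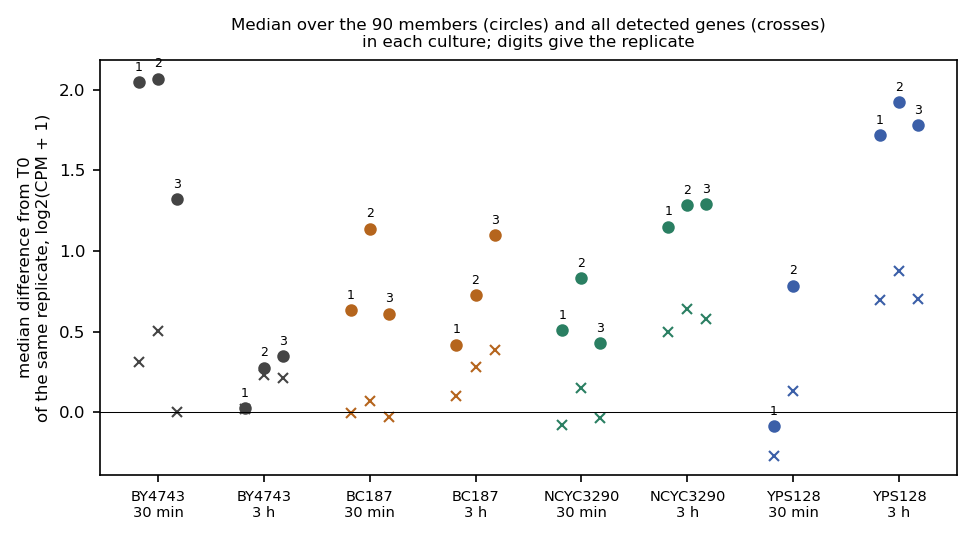
Median difference from the T0 library of the same replicate over the 90 members (circles) and over all detected genes (crosses), on the log2(CPM + 1) scale, with the replicate number above each circle. In BY4743 the members stood at 1.32 to 2.07 at 30 min and at 0.02 to 0.35 at 3 h, whereas in YPS128 they stood at -0.09 and 0.78 at 30 min and at 1.72 to 1.92 at 3 h.

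Hardly any gene in the wild strains met the rule. The same rule applied to each wild strain returned 5 genes in BC187, 1 in NCYC3290 and 0 in YPS128. One gene was shared with the members, YDL129W in BC187, which is 1.11% of the members and 20% of the BC187 list. Scaling with TMM factors raised these numbers to 7 and 4 and left YPS128 at 0. The members then shared were YDL129W in BC187 and SIS1 in NCYC3290. With library totals, the median difference of all detected genes at 3 h was 0.60 in NCYC3290 and 0.77 in YPS128. Most genes thus failed the late limit of 0.5 in these strains. At 30 min, 20.3% of all genes stood 1 or more above T0 in BY4743, against 7.83%, 6.27% and 3.23% in BC187, NCYC3290 and YPS128.

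The wild strains were then tested gene by gene over 6019 genes, all 90 members among them, with edgeR's quasi-likelihood test on TMM-scaled counts and a Benjamini-Hochberg adjusted p of 0.05. In BC187, 55 members were higher at 30 min than at T0, against 18.4% of all genes tested, and 46 were higher at 3 h, against 30.4%. In NCYC3290, 45 members were higher at 30 min, against 16.2%, and 51 at 3 h, against 32.2%. In YPS128, 30 members were higher at 30 min, against 8.59%, and 65 at 3 h, against 35.7%. On the TMM scale, fewer members were thus called higher at 3 h than at 30 min in BC187, and more in NCYC3290 and YPS128. The share of all genes called higher was larger at 3 h in every wild strain. With library totals, 51 members were higher at 30 min and 57 at 3 h in BC187, so that its order turned. NCYC3290 then had 38 and 75, and YPS128 had 25 and 79. Lower calls on the TMM scale at 30 min and 3 h numbered 1 and 3 for BC187, 3 and 1 for NCYC3290 and 7 and 4 for YPS128. The shares of all genes were 16.3% and 24.5%, 12.7% and 28.2%, and 6.58% and 32.2%. In YPS128 at 30 min the share of the members, 7.78%, was near that of all genes, and elsewhere it was well below. Among the 77 genes that did not rest on 1 BY4743 library, 54 and 45 were higher for BC187, 44 and 51 for NCYC3290 and 30 and 63 for YPS128. Without the replicate 3 libraries, 26 members were higher and 3 lower in BC187 at 3 h.

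The median log2 change of the members was 0.87 at 30 min and 0.54 at 3 h for BC187, 0.61 and 0.81 for NCYC3290, and 0.26 and 1.18 for YPS128. Over all genes tested these medians lay between -0.03 and 0.07. Without the 13 genes they were 0.92 and 0.53, 0.61 and 0.81, and 0.27 and 1.18. These changes are on the TMM scale. Scaling by library totals moved the median of all genes by 0.27 in BC187, 0.60 in NCYC3290 and 0.81 in YPS128 at 3 h, and by 0.03, 0.01 and -0.10 at 30 min.

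The step from 30 min to 3 h was then tested directly. In BC187, 40 members fell between the time points, against 24.7% of all genes, and 5 rose, against 28.2%. In NCYC3290, 27 fell, against 26.9%, and 19 rose, against 27.9%. In YPS128 the balance was the opposite, with 7 members lower, against 29.1%, and 39 higher, against 30.2%. In NCYC3290 both shares of the members (30.0% and 21.1%) were near the background, and in YPS128 the share of members that rose was 43.3%. This balance moved with the scale. With library totals, 13 members rose and 25 fell in BC187, 39 rose and 11 fell in NCYC3290, so that its balance turned, and 71 rose and 1 fell in YPS128.

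Genes that rose early in BY4743 and stayed up serve as a further reference. Of these 499 genes, 367 were higher at 30 min for BC187, 293 for NCYC3290 and 172 for YPS128. These shares of 73.5%, 58.7% and 34.5% stood beside 61.1%, 50.0% and 33.3% of the members. At 3 h the sets differed more, with 467, 467 and 477 of the 499 higher (93.6%, 93.6% and 95.6%) against 51.1%, 56.7% and 72.2% of the members. A fall between 30 min and 3 h was called for 67, 40 and 3 of the 499 (13.4%, 8.02% and 0.601%) against 44.4%, 30.0% and 7.78% of the members. Among the 77 members that did not rest on 1 BY4743 library, 54, 44 and 30 were higher at 30 min in BC187, NCYC3290 and YPS128. At 3 h, 45, 51 and 63 of them were higher, and 40, 27 and 7 fell between the times. Each share of the 77 was above that of the 90. In YPS128 at 30 min it was also above that of the 499. No test was made of these differences between sets.

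**Figure D3:**
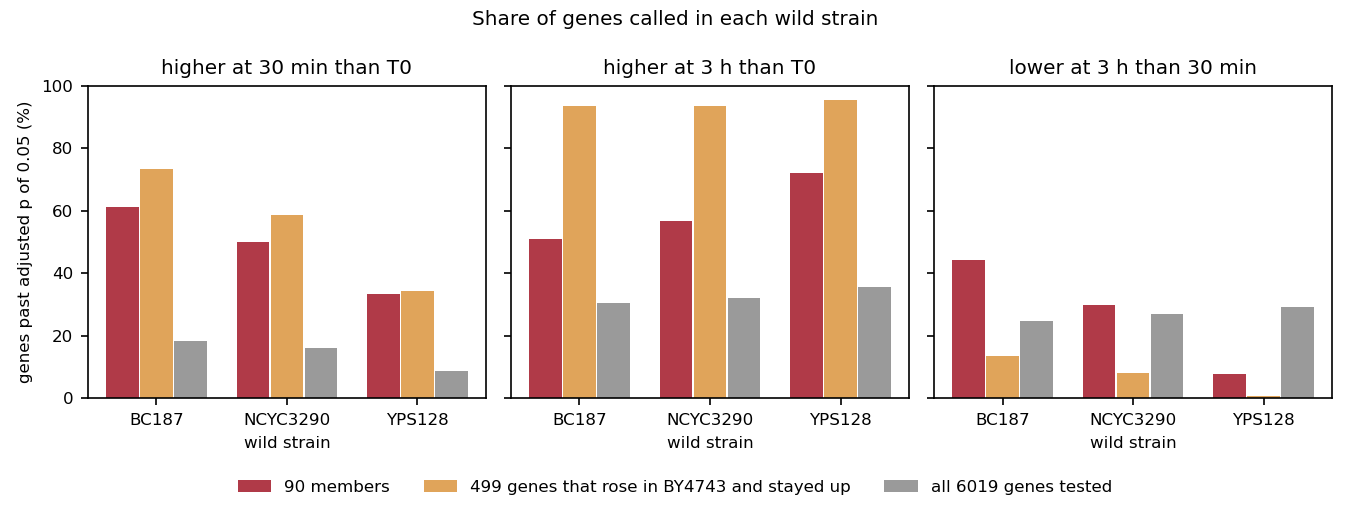
Share of genes past an adjusted p of 0.05 in each wild strain, for the 90 members, the 499 genes that rose early in BY4743 and stayed up, and all 6019 genes tested. The members' bars for a rise at 30 min fall from 61.1% in BC187 to 33.3% in YPS128, while those for a rise at 3 h climb from 51.1% to 72.2%. These bars include the 13 members that were high in 1 BY4743 library only.

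By course, 40 members in BC187 were higher at both times (13.2% of all genes), 15 at 30 min only (5.17%), 6 at 3 h only (17.2%) and 29 at neither (64.5%). NCYC3290 had 34 at both times (12.1%), 11 at 30 min only (4.09%), 17 at 3 h only (20%) and 28 at neither (63.7%). YPS128 had 29 at both times (7.31%), 1 at 30 min only (1.28%), 36 at 3 h only (28.4%) and 24 at neither (63.0%). A partial pulse, higher at 30 min and then lower at 3 h than at 30 min, was called for 38 members in BC187 (6.43%), 24 in NCYC3290 (5.1%) and 5 in YPS128 (1.61%). A pulse after which the gene was not called higher than T0 at 3 h was seen in 12 members in BC187 (3.97%), 7 in NCYC3290 (3.07%) and 0 in YPS128 (1.06%). BUD7 in BC187 is counted there although it was called lower than T0 at 3 h. These courses are on the TMM scale. With library totals, 25 members in BC187, 11 in NCYC3290 and 1 in YPS128 fell from 30 min to 3 h, so at most that many could show a partial pulse. The opposite course, higher at 3 h and still higher then than at 30 min, was called for 3 members in BC187 (18.5%), 17 in NCYC3290 (20.1%) and 35 in YPS128 (25.2%). Across strains, 28 members were higher at 30 min in all 3 wild strains (6.8%), 40 were higher at 3 h in all 3 (22.1%) and 22 were both (5.18%).

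Chaperone genes were among the members that rose early in every strain. The list of heat shock proteins and chaperones had 6 members, and 5 of them, BTN2, HSP82, SIS1, APJ1 and FES1, were among the 28 called at 30 min in all 3 wild strains. A heat shock element core, TTCNNGAA on either strand (the letters read the same on both), lay within 300 bases before the annotated start of 12 of 83 members with a nuclear coding gene model, or 14.5%, against 13.1% of 5987 genes. It was found in 9 of the 28 genes that rose at 30 min in every wild strain (32.1%) and in 3 of the other 55 (5.45%). The 9 were HSP82, BTN2, APJ1, FES1, MBF1, LST8, ROQ1, SMP1 and VPS33, and the 3 were NAS2, YML053C and FRE4. This split was noticed in these data and was not tested, and a match is a description of letters, not a bound site.

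The stretches below are shown because they carry these elements ahead of 7 of the 9 genes just named, all of which rose at 30 min in every wild strain. They are reference sequence of strain S288c, build R64, from RefSeq, read toward the gene on its own strand, and the capitals mark TTCNNGAA. All but that of BTN2 run from 300 to 101 bases before the annotated start, and that of BTN2 holds the 30 bases around its element. Coordinates are chrXVI:98726-98925, minus strand for HSP82, chrVII:772364-772393, plus strand for BTN2, chrXIV:481091-481290, plus strand for APJ1, chrII:444794-444993, minus strand for FES1, chrXIV:619767-619966, plus strand for LST8, chrXV:877786-877985, minus strand for MBF1 and chrX:146059-146258, plus strand for ROQ1.
HSP82: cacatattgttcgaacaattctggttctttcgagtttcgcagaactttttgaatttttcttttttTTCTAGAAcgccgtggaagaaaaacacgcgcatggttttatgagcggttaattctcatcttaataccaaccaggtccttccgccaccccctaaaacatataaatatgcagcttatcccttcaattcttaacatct
BTN2: atattttcttcTTCTTGAAagaaatatcag
APJ1: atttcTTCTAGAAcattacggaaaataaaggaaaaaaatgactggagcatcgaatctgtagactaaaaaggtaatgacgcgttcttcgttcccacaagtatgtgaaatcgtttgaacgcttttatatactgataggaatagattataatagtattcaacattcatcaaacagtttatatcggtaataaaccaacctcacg
FES1: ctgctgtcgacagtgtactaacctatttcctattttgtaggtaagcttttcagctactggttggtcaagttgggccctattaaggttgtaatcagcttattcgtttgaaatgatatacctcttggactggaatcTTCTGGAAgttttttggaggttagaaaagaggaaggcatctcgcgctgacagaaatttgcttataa
LST8: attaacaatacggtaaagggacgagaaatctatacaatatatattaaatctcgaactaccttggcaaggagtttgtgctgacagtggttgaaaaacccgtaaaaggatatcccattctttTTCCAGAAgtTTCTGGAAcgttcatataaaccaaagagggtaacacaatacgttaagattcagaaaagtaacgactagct
MBF1: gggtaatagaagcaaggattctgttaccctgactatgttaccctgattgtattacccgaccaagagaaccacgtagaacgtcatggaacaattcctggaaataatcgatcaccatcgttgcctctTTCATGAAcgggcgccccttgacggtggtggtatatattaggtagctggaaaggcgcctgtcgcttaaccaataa
ROQ1: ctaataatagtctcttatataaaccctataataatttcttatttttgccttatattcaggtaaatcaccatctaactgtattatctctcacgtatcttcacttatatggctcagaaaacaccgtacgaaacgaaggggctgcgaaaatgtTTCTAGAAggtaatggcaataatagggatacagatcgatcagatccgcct
The first base of the element lay 235 and 67 bases before the start in HSP82, of which the nearer is not in the stretch shown, and 180 and 170 bases before it in LST8. It lay 79 bases before the start of BTN2, 295 before that of APJ1, 166 before that of FES1, 175 before that of MBF1 and 150 before that of ROQ1. SIS1 held none in its own 300 bases. SIS1 and LST8 are transcribed away from each other with 501 bases between them on chromosome XIV, so the pair of elements lies in the interval they share.

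BTN2 encodes a small protein that gathers misfolded proteins into deposits, and it had the largest rise in BY4743. Its BY4743 libraries stood at 57.4, 32.2 and 89.8 CPM at T0, 1115, 918 and 772 CPM at 30 min and 40.6, 21.1 and 66.9 CPM at 3 h. BC187 libraries stood at 30.1, 10.6 and 17.2 CPM at T0, 1629, 1471 and 1257 CPM at 30 min and 208, 134 and 494 CPM at 3 h. In both strains every 30 min library was above every other library, but at 3 h BY4743 overlapped its T0 range whereas BC187 stayed above it. NCYC3290 had 27.6, 20.3 and 53.2 CPM at T0, 507, 460.1 and 555 CPM at 30 min and 224, 217 and 401 CPM at 3 h. YPS128 had 28.5, 7.78 and 16.7 CPM at T0, 161 and 429 CPM at 30 min and 604, 409 and 1367 CPM at 3 h. In YPS128 the 30 min and 3 h ranges overlapped, and both were above T0. The log2 change at 30 min was 6.28 ± 0.43 (adjusted p = 1.89e-12) in BC187, 4.00 ± 0.39 (adjusted p = 3.46e-09) in NCYC3290 and 4.46 ± 0.43 (adjusted p = 5.09e-09) in YPS128 (± standard error of the fit here and below). From 30 min to 3 h BTN2 changed by -2.84 ± 0.36 (adjusted p = 1.91e-07) in BC187 and -1.5 ± 0.34 (adjusted p = 0.000531) in NCYC3290, and in YPS128 the difference was 0.12 ± 0.39 (adjusted p = 0.81).

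HSP82 encodes the heat-inducible Hsp90 chaperone. BY4743 held 624, 343 and 776 CPM at T0, 4230, 3796 and 2284 CPM at 30 min and 603, 569 and 1043 CPM at 3 h. Its T0 libraries in BY4743 were all above those of the wild strains, which held 156, 48.9 and 110.3 CPM in BC187, 185, 69.8 and 317 CPM in NCYC3290 and 61.3, 34.8 and 75.6 CPM in YPS128. At 30 min the libraries stood at 1521, 1413 and 1406 CPM in BC187, 989, 848 and 1135 CPM in NCYC3290 and 214 and 381 CPM in YPS128. Both YPS128 libraries at 30 min were below those of the other wild strains. At 3 h HSP82 stood at 1295, 942 and 2116 CPM in YPS128, 435, 430.3 and 1022 CPM in BC187 and 458, 470.3 and 742 CPM in NCYC3290, so that every YPS128 library was above its 30 min libraries. The log2 change was 3.84 ± 0.32 (adjusted p = 2.15e-11) at 30 min and 2.27 ± 0.30 (adjusted p = 1.29e-07) at 3 h in BC187. NCYC3290 changed by 2.52 ± 0.30 (adjusted p = 7.3e-08) and 1.08 ± 0.29 (adjusted p = 0.00171). YPS128 changed by 2.75 ± 0.33 (adjusted p = 1.52e-07) and 3.84 ± 0.32 (adjusted p = 7.38e-12), and its step from 30 min to 3 h was a rise of 1.09 ± 0.33 (adjusted p = 0.00539).

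SIS1 encodes an essential J-domain partner of Hsp70. Its BY4743 libraries stood at 242, 192 and 331 CPM at T0, 1306, 1265 and 1278 CPM at 30 min and 192, 155 and 259.9 CPM at 3 h. BC187 libraries stood at 113, 42.5 and 106 CPM at T0, 1314, 1239 and 1192 CPM at 30 min and 172, 169 and 421 CPM at 3 h. The 30 min libraries of BY4743 and BC187 overlapped, and at 3 h the BC187 libraries were all above its T0 range while those of BY4743 overlapped theirs. NCYC3290 held 169, 82.8 and 230.3 CPM at T0, 786, 716 and 944 CPM at 30 min and 210.5, 203 and 326 CPM at 3 h. YPS128 held 104, 57.5 and 117 CPM at T0, 276 and 479.9 CPM at 30 min and 400.0, 347 and 762 CPM at 3 h. In NCYC3290 the 3 h range overlapped T0, and the test found 0.08 ± 0.21 (adjusted p = 0.774) at 3 h after 2.42 ± 0.22 (adjusted p = 3.85e-10) at 30 min. With library totals the NCYC3290 value at 3 h was 0.66 and was called. In BC187 the changes were 3.90 ± 0.24 (adjusted p = 2.37e-14) and 1.22 ± 0.22 (adjusted p = 1.98e-05), and in YPS128 2.38 ± 0.24 (adjusted p = 5.96e-09) and 1.60 ± 0.22 (adjusted p = 1.5e-07).

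APJ1, a J-domain protein that helps dissolve nuclear aggregates, reached a higher level in BC187 and NCYC3290 than in BY4743. BY4743 libraries held 24.8, 18.4 and 29.2 CPM at T0, 148, 172 and 235 CPM at 30 min and 23.7, 23.1 and 39.4 CPM at 3 h, and those of BC187 held 12.8, 11.5 and 17.0 CPM at T0, 453, 454 and 475 CPM at 30 min and 61.3, 58.5 and 149 CPM at 3 h. NCYC3290 libraries held 20.8, 10.8 and 21.2 CPM at T0, 358, 392 and 409 CPM at 30 min and 88.0, 88.0 and 127 CPM at 3 h, and those of YPS128 held 10.3, 6.55 and 10.1 CPM at T0, 91.7 and 190.2 CPM at 30 min and 141, 102 and 226 CPM at 3 h. At 30 min every BC187 and NCYC3290 library was above every BY4743 library. The log2 changes at 30 min and 3 h were 5.07 ± 0.23 and 2.34 ± 0.22 for BC187, 4.49 ± 0.22 and 1.93 ± 0.21 for NCYC3290, and 4.24 ± 0.24 and 3.25 ± 0.23 for YPS128, with adjusted p of at most 2.9e-09. APJ1 was lower at 3 h than at 30 min in all 3 wild strains, with changes of -2.73, -2.56 and -0.99 ± 0.21 (adjusted p = 0.000161) in the same order, of which the last was -0.10 and not called with library totals.

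FES1 encodes a nucleotide exchange factor of Hsp70. It stood at 87.8, 62.1 and 109 CPM at T0, 271, 264 and 322 CPM at 30 min and 54.4, 44.6 and 70.0 CPM at 3 h in BY4743, where 2 of the 3 libraries at 3 h were below every T0 library. In the wild strains the changes at 30 min and 3 h were 2.68 ± 0.17 and 0.93 ± 0.17 for BC187, 2.21 ± 0.17 and 0.56 ± 0.16 for NCYC3290 and 2.03 ± 0.19 and 1.85 ± 0.17 for YPS128, all with adjusted p of at most 0.00384. The YPS128 step from 30 min to 3 h, -0.18 ± 0.18 (adjusted p = 0.398), was not called and was 0.71 with library totals. MDJ1, a J-domain protein of mitochondria, is the chaperone member outside the 28: its log2 value at 30 min was 2.16 ± 0.24 (adjusted p = 1.87e-08) in BC187 and 1.02 ± 0.24 (adjusted p = 0.00137) in NCYC3290 but 0.51 ± 0.28 (adjusted p = 0.232) in YPS128. At 3 h MDJ1 was called in BC187 and YPS128, at 0.89 and 1.09, and not in NCYC3290, at 0.46 ± 0.24 (adjusted p = 0.0922), which was 1.05 and called with library totals. JID1, a probable J-domain protein on no list here, had log2 values of 2.68 ± 0.26 (adjusted p = 8.63e-10), 1.17 ± 0.25 (adjusted p = 0.000696) and 0.76 ± 0.29 (adjusted p = 0.0741) at 30 min in the same order of strains.

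**Figure D4:**
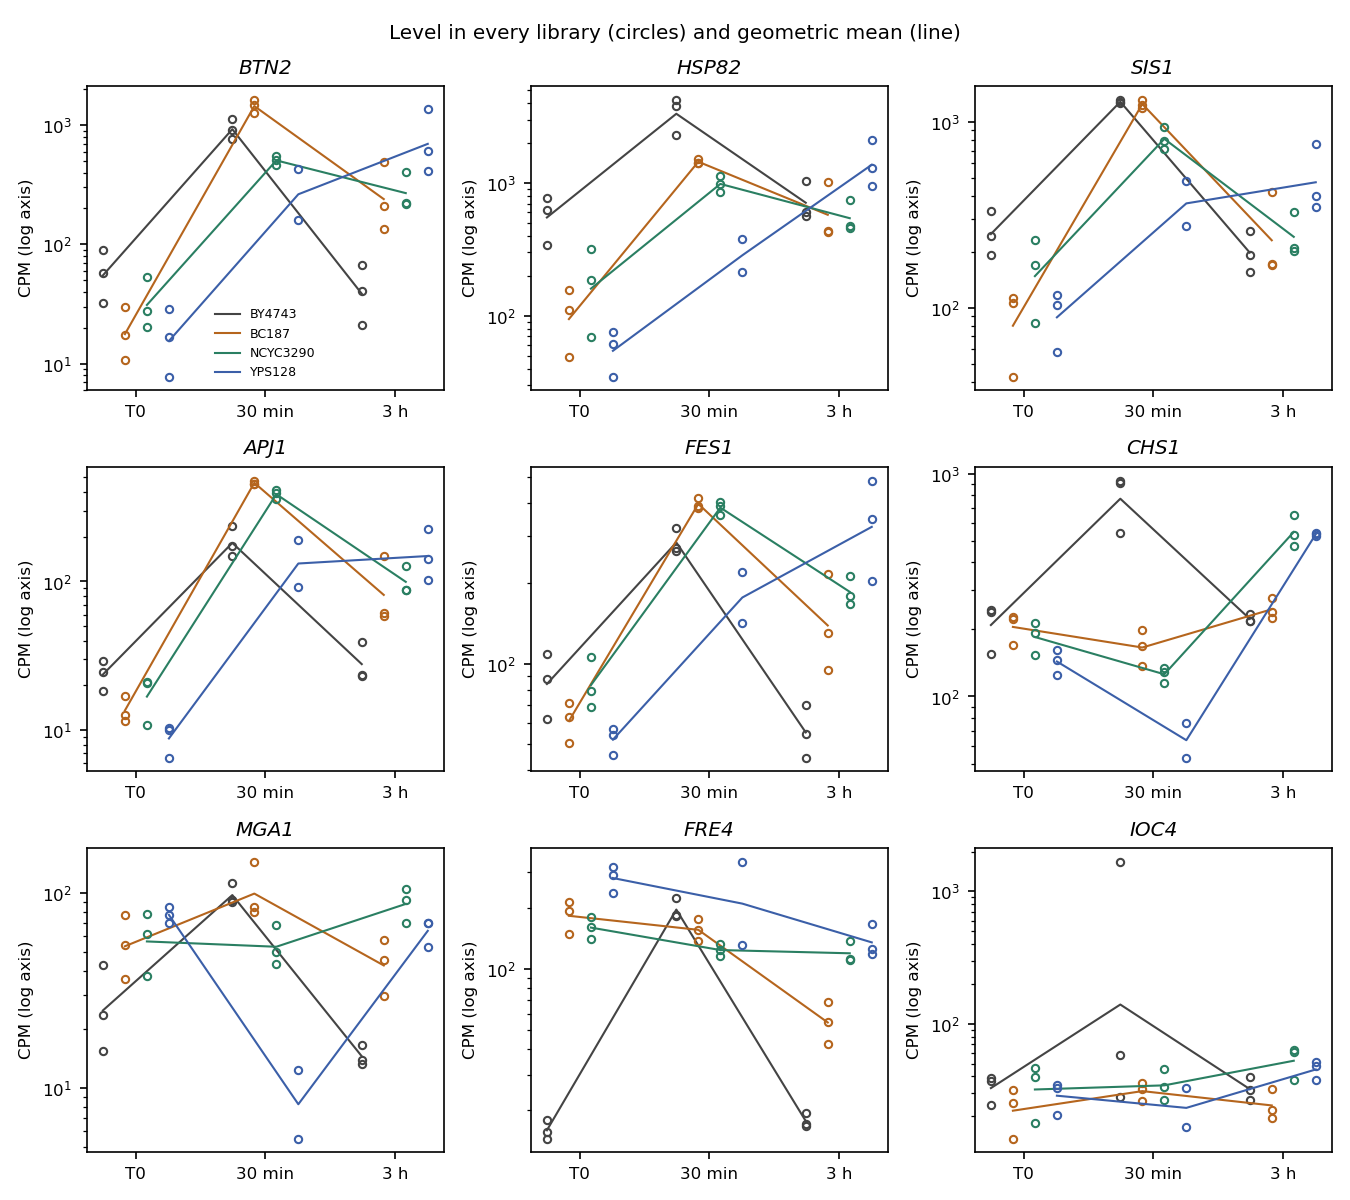
CPM in every library (circles, log axis) and the geometric mean per strain and time (line) for 9 members. BTN2, HSP82, SIS1, APJ1 and FES1 rose in all strains at 30 min, CHS1 and MGA1 rose in BY4743 while YPS128 fell, FRE4 rose in BY4743 from a T0 level below that of the wild strains, and IOC4 was high in 1 BY4743 library only.

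The chaperone list is wider than its 6 members. Of its 32 tested genes, 20 were higher and 1 lower at 30 min for BC187, 18 and 0 for NCYC3290 and 16 and 2 for YPS128. Their median log2 changes were 1.93, 1.05 and 0.73, against -0.03, -0.02 and -0.02 over all genes. At 3 h, 18 were higher and 9 lower for BC187, 14 and 14 for NCYC3290 and 18 and 12 for YPS128, with medians of 0.91, 0.27 and 1.53. From 30 min to 3 h, 24 fell and 3 rose in BC187, 26 fell and 4 rose in NCYC3290, and 12 fell and 11 rose in YPS128. In BY4743, 17 of the 32 rose by 1.5 or more at 30 min on the log2(CPM + 1) scale and 20 stood at 0.5 or less at 3 h.

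The other genes that rose at 30 min in every wild strain belong to varied processes. LST8, a subunit of both TOR kinase complexes, stood at 40.6, 35.6 and 44.5 CPM at T0, 120.2, 134 and 172 CPM at 30 min and 43.0, 44.4 and 46.5 CPM at 3 h in BY4743. In BC187 it stood at 34.1, 34.2 and 32.3 CPM at T0, 226, 208 and 222 CPM at 30 min and 74.0, 74.0 and 104 CPM at 3 h, so that the wild strain passed the laboratory strain at 30 min without overlap. LST8 changed by 2.67 ± 0.16 in BC187, 2.74 ± 0.16 in NCYC3290 and 2.18 ± 0.17 in YPS128 at 30 min, and by 1.03 ± 0.15, 1.26 ± 0.15 and 1.37 ± 0.16 at 3 h, with adjusted p of at most 1.34e-06. MBF1, a transcriptional coactivator, changed by 2.35 ± 0.17, 2.05 ± 0.17 and 1.5 ± 0.18 at 30 min and by 0.76 ± 0.16, 0.80 ± 0.16 and 1.42 ± 0.16 at 3 h, with adjusted p of at most 0.000186. ROQ1, which redirects the ubiquitin ligase Ubr1 under stress, stood at 3.81, 2.71 and 4.26 CPM at T0 and 118, 129 and 136 CPM at 30 min in BC187, a change of 5.17 ± 0.38 (adjusted p = 2.06e-12). It changed by 4.75 ± 0.39 (adjusted p = 4.2e-11) in NCYC3290 and 4.56 ± 0.44 (adjusted p = 2.04e-09) in YPS128.

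GAL2, the galactose permease, had the second largest rise in BY4743, where its libraries stood at 3.46, 3.63 and 4.73 CPM at T0, 69.6, 58.6 and 87.8 CPM at 30 min and 3.38, 5.88 and 4.32 CPM at 3 h. BC187 had 3.05, 3.39 and 3.87 CPM at T0, 35.7, 69.3 and 38.5 CPM at 30 min and 12.2, 12.5 and 16.2 CPM at 3 h. The 30 min libraries of both strains were far above their T0 libraries, and at 3 h BY4743 overlapped its T0 range whereas BC187 stayed above it. GAL2 changed at 30 min by 3.74 ± 0.31 (adjusted p = 2.3e-11) in BC187, 2.72 ± 0.34 (adjusted p = 1.94e-07) in NCYC3290 and 1.74 ± 0.46 (adjusted p = 0.00897) in YPS128. SCM3, which loads the centromeric histone, was called at both times in all 3 strains, with 1.88 and 1.54 for BC187, 2.20 and 2.15 for NCYC3290 and 2.38 and 3.24 for YPS128. SLX5, a subunit of a SUMO-directed ubiquitin ligase, changed by 1.74 ± 0.21, 2.22 ± 0.21 and 1.41 ± 0.24 at 30 min, and then on the TMM scale fell by 3 h in BC187 and NCYC3290. In NCYC3290 its libraries overlapped, at 87.9, 126 and 131 CPM at 30 min and 86.4, 64.6 and 129.8 CPM at 3 h. Its step was not followed with library totals.

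The lists placed 3 transcription factors among these 28 genes, SMP1, CAD1 and PHO2. SMP1, a MADS-box factor linked to Hog1, stood at 8.28, 11.1 and 9.63 CPM at T0, 18.4, 38.4 and 41.7 CPM at 30 min and 8.22, 14.4 and 11.2 CPM at 3 h in BY4743, where every 30 min library was above every other, with replicate 1 the lowest of them. In YPS128 SMP1 stood at 5.17, 4.71 and 8.22 CPM at T0, 17.9 and 16.7 CPM at 30 min and 53.9, 48.8 and 59.3 CPM at 3 h, with no overlap between any 2 times. Its change was 1.68 ± 0.31 (adjusted p = 0.000217) at 30 min and 2.37 ± 0.26 (adjusted p = 2.72e-09) at 3 h in YPS128, and at 3 h it was 0.87 ± 0.23 (adjusted p = 0.0015) in BC187 and 1.21 ± 0.23 (adjusted p = 3.1e-05) in NCYC3290. CAD1, a bZIP factor of the Yap family, rose in BC187 and NCYC3290 at 30 min, by 1.08 ± 0.15 (adjusted p = 8.01e-07) and 0.65 ± 0.14 (adjusted p = 0.000849), and at 3 h stood at 0.20 ± 0.15 (adjusted p = 0.269) and 0.13 ± 0.14 (adjusted p = 0.449). With library totals both 3 h values were called, at 0.47 and 0.72, and the NCYC3290 step from 30 min to 3 h was 0.07, which is no fall. In YPS128 CAD1 was higher at both times, by 1.12 ± 0.21 and 1.28 ± 0.17. PHO2, a homeodomain factor of phosphate and purine genes, was called higher at both times in all 3 strains, at 1.20, 1.15 and 0.92 at 30 min.

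BUD7, a subunit of the exomer that sorts cargo at the Golgi, rose at 30 min in all 3 wild strains. BY4743 libraries stood at 71.8, 60.7 and 84.4 CPM at T0, 228, 245 and 222 CPM at 30 min and 61.9, 57.9 and 84.0 CPM at 3 h, and BC187 libraries at 101, 84.2 and 90.8 CPM at T0, 195, 213 and 184 CPM at 30 min and 71.7, 81.2 and 115 CPM at 3 h. In BC187 the 30 min libraries were above all others and 2 of the 3 h libraries were below and 1 was above every T0 library. BUD7 changed by 1.07 ± 0.12 (adjusted p = 1.88e-08) at 30 min and -0.34 ± 0.12 (adjusted p = 0.0178) at 3 h in BC187, where the 3 h value was -0.07 and not called with library totals. In NCYC3290 the values were 1.0 ± 0.12 (adjusted p = 1.38e-07) and 0.27 ± 0.12 (adjusted p = 0.0519), and in YPS128 0.54 ± 0.14 (adjusted p = 0.00613) and 0.25 ± 0.12 (adjusted p = 0.0646). With library totals the YPS128 value at 30 min, 0.45, was not called, and the 3 h values, 0.87 in NCYC3290 and 1.07 in YPS128, were. SNX41, a sorting nexin, rose at 30 min by 1.06 ± 0.16, 0.64 ± 0.16 and 0.86 ± 0.20 and was higher at 3 h too in the 3 strains.

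The remaining members of the 28 were DSC3, UBS1, YDL129W, VPS33, SKI7, SOH1, YDL109C, CCZ1, LUC7, SWC4, TEX1 and MPH1. A further 14 members rose at 30 min in 2 wild strains, namely MOB1 in NCYC3290 and YPS128, NPL4 in BC187 and YPS128 and the other 12 in BC187 and NCYC3290. They include MDH2, the cytosolic malate dehydrogenase, and CIT2, the peroxisomal citrate synthase. MDH2 stood at 160.3, 196 and 196 CPM at T0, 418, 603 and 610.2 CPM at 30 min and 150.4, 153 and 202 CPM at 3 h in BY4743, far above its level in BC187, which was 20, 23.1 and 20.5 CPM at T0, 65.5, 104 and 67.4 CPM at 30 min and 80.6, 108 and 125 CPM at 3 h. BC187 stayed up at 3 h where BY4743 had returned. The log2 values of MDH2 at 30 min were 1.85 ± 0.20 (adjusted p = 8.04e-09) in BC187, 1.16 ± 0.21 (adjusted p = 6.21e-05) in NCYC3290 and 0.45 ± 0.21 (adjusted p = 0.164) in YPS128, and at 3 h 2.01, 2.21 and 1.81, all called. CIT2 rose by 0.78 and 0.95 at 30 min in BC187 and NCYC3290, and in YPS128 the value was -0.29 ± 0.23 (adjusted p = 0.439).

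RCN2, a regulator of the calcium-dependent phosphatase calcineurin, stood at 51.2, 55.4 and 60.1 CPM at T0, 303, 322 and 284 CPM at 30 min and 60.4, 77.6 and 97.9 CPM at 3 h in BY4743. All 30 min libraries were far above the others. RCN2 rose at 30 min by 0.71 ± 0.20 (adjusted p = 0.00609) in BC187 and 0.74 ± 0.21 (adjusted p = 0.00648) in NCYC3290, and in YPS128 the value was -0.49 ± 0.24 (adjusted p = 0.183). At 3 h RCN2 was higher in all 3, by 0.57, 0.97 and 0.88. GPA2, a G protein alpha subunit of glucose sensing, had the same pattern at 30 min, with 0.76 and 0.61 called and 0.12 ± 0.24 (adjusted p = 0.794) in YPS128 not called. Of the meiotic genes, MSH4, which promotes crossovers, rose by 1.0 and 1.09 in BC187 and NCYC3290 at 30 min and was 0.94 ± 0.36 (adjusted p = 0.077) in YPS128. Of the autophagy genes, ATG21 rose by 0.75 and 0.51 and ATG3, the enzyme that couples Atg8 to lipid, by 1.13 in BC187, with 0.33 and 0.38 in NCYC3290 and YPS128 not called. The ATG3 response in BC187 did not pass the test of a difference from NCYC3290, at 0.80 ± 0.40 (adjusted p = 0.553). At 3 h ATG3 was higher in all 3 wild strains, by 1.0, 0.90 and 1.67, while ATG21 was called in YPS128, at 0.82 ± 0.16 (adjusted p = 3.84e-05), and not in the others. With library totals the NCYC3290 values of ATG21 were 0.52, not called, at 30 min and 0.85, called, at 3 h.

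Of the 77 genes, 19 were not called higher at 30 min in any wild strain, against 77.6% of all genes tested. CHS1, the chitin synthase that repairs the wall at cell separation, stood at 155, 246 and 241 CPM at T0, 930.1, 912 and 544 CPM at 30 min and 218, 218 and 234 CPM at 3 h in BY4743. BC187 had 227, 224 and 170.3 CPM at T0, 168, 198 and 137 CPM at 30 min and 225, 239.8 and 277 CPM at 3 h, and its T0 range overlapped those of both later times. YPS128 had 161, 126 and 147 CPM at T0, 53.2 and 76.2 CPM at 30 min and 544, 526 and 537 CPM at 3 h, with every 30 min library below and every 3 h library above T0. The log2 values of CHS1 at 30 min were -0.34 ± 0.17 (adjusted p = 0.121) in BC187, -0.56 ± 0.17 (adjusted p = 0.0125) in NCYC3290 and -1.07 ± 0.20 (adjusted p = 0.000307) in YPS128. At 3 h they were -0.02 ± 0.17 (adjusted p = 0.933), 0.96 ± 0.17 (adjusted p = 1.33e-05) and 1.08 ± 0.17 (adjusted p = 1.85e-06).

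A fall at 30 min was called in 1 or more wild strains for 9 members, TOS3, MGA1, RFX1, PUN1, YMR084W, MSS11, CHS1, MNT4 and TMC1 (21.2% of all genes). MGA1, which resembles the heat shock factor and acts in filamentous growth, had the largest fall called at 30 min. Its libraries stood at 15.4, 42.9 and 23.6 CPM at T0, 92.1, 89.3 and 113 CPM at 30 min and 13.3, 14.0 and 16.6 CPM at 3 h in BY4743, where every 30 min library was above every other. In BC187 they stood at 54.1, 76.9 and 36.4 CPM at T0, 79.9, 144 and 84.7 CPM at 30 min and 29.6, 45.2 and 57.4 CPM at 3 h, and in YPS128 at 77.3, 85.0 and 70.0 CPM at T0, 5.51 and 12.4 CPM at 30 min and 52.9, 70.4 and 70.1 CPM at 3 h. YPS128 had both 30 min libraries far below its other libraries. The log2 value at 30 min was 0.83 ± 0.27 (adjusted p = 0.0181) in BC187, -0.04 ± 0.28 (adjusted p = 0.939) in NCYC3290 and -3.08 ± 0.39 (adjusted p = 5.38e-07) in YPS128. TMC1, a zinc finger protein of the stress response, changed by -1.68 ± 0.29 (adjusted p = 0.000101) at 30 min in YPS128 and was higher at 3 h in all 3 strains, by 0.76, 1.15 and 1.20. YMR084W changed by -2.02 ± 0.53 (adjusted p = 0.00719) at 30 min in YPS128, where its 2 libraries held 1 and 8 counts. PUN1, a plasma membrane protein induced by nitrogen starvation, changed by -1.01 ± 0.19 (adjusted p = 0.000201) at 30 min in YPS128 and was higher at 3 h in NCYC3290 and YPS128.

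RIM8, an arrestin-related protein of the alkaline pH response, stood at 11.7, 13.3 and 16.8 CPM at T0, 75.2, 88.4 and 65.5 CPM at 30 min and 17.4, 14.6 and 27.7 CPM at 3 h in BY4743, with no overlap of 30 min with the other times. Its log2 values at 30 min were 0.87 ± 0.20 (adjusted p = 0.00118) in BC187, 0.37 ± 0.22 (adjusted p = 0.214) in NCYC3290 and 0.27 ± 0.30 (adjusted p = 0.598) in YPS128, and at 3 h 0.78, 1.12 and 1.71. The log2 values of YDR042C at 30 min were 1.05 ± 0.47 (adjusted p = 0.0849), 1.23 ± 0.41 (adjusted p = 0.0223) and 0.51 ± 0.58 (adjusted p = 0.609) in the same order.

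RFX1, a repressor of DNA damage genes, was lower at 30 min, with log2 changes of -0.67 ± 0.21 (adjusted p = 0.0114) in BC187 and -0.79 ± 0.21 (adjusted p = 0.00495) in NCYC3290. MSS11, a regulator of flocculation genes, changed at 30 min by -0.80 ± 0.25 (adjusted p = 0.0156) in NCYC3290, a call lost with library totals at -0.80. Both were then higher than T0 at 3 h in NCYC3290 and YPS128, RFX1 by 0.70 and 1.0 and MSS11 by 0.85 and 1.18. A rise at 3 h in all 3 wild strains with none at 30 min was called for 4 members, ZIP1, TOS3, RCH1 and TMC1 (8.99% of all genes). RCH1, a plasma membrane regulator of calcium entry, stood at 11.2, 18.4 and 9.46 CPM at T0, 63.7, 69.6 and 59.1 CPM at 30 min and 14.0, 20.3 and 12.4 CPM at 3 h in BY4743 and at 2.49, 5.33 and 4.46 CPM at T0, 4.13 and 2.93 CPM at 30 min and 27.2, 30.6 and 38.1 CPM at 3 h in YPS128. The peak of RCH1 was at 30 min without overlap in BY4743 and at 3 h without overlap in YPS128. Its change at 3 h was 1.35 ± 0.28 (adjusted p = 0.000146) in BC187, 1.60 ± 0.29 (adjusted p = 1.59e-05) in NCYC3290 and 2.15 ± 0.29 (adjusted p = 1.04e-07) in YPS128. ZIP1, a structural protein of paired meiotic chromosomes, changed by 0.91, 1.49 and 1.55 at 3 h, all called. On the TMM scale, a further 11 members were called higher at 3 h in YPS128 and in neither other wild strain (6.53%), among them CAD1, ATG21 and SLZ1. Of these 3, CAD1 differed from YPS128 in both other strains, ATG21 in BC187 and SLZ1 in neither by the test of the difference. With library totals CAD1 was called at 3 h in BC187 and NCYC3290 too, at 0.47 and 0.72. ATG21, PEX35 and YDR042C, also of the 11, were then called in NCYC3290, at 0.85, 1.23 and 1.47. The rest of the 11 were not followed with library totals.

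Among the 77, 6 genes were called higher at neither time in any wild strain, namely MST27, REX3, CAF120, MNT4, FRE4 and ALD6. With library totals ALD6 was called in NCYC3290 at 3 h, at 0.72. The calls of REX3, CAF120 and MNT4 were not followed with library totals. On the log2(CPM + 1) scale at 3 h, MNT4 stood 0.98 above T0 in NCYC3290, and REX3 and CAF120 stood 0.89 and 0.82 above it in YPS128. With the 13 others, the genes called higher at neither time numbered 17, against 51.6% of all genes. FRE4, a ferric reductase, stood at 15.6, 18.0 and 14.5 CPM at T0, 184, 224 and 182 CPM at 30 min and 19.3, 17.2 and 16.8 CPM at 3 h in BY4743. BC187 stood at 191, 148 and 213 CPM at T0, 155, 137 and 176 CPM at 30 min and 68.6, 42.6 and 54.8 CPM at 3 h, and NCYC3290 and YPS128 held 140.1, 179.9 and 161 CPM and 318, 237 and 290.1 CPM at T0. The BY4743 libraries at 30 min thus lay within the range that the wild strains held before NaCl, and its T0 libraries were far below that range. FRE4 was lower than T0 at 3 h in all 3 wild strains, with log2 changes of -2.01 ± 0.26 (adjusted p = 8.22e-08) in BC187, -1.03 ± 0.25 (adjusted p = 0.000637) in NCYC3290 and -1.86 ± 0.25 (adjusted p = 1.13e-07) in YPS128. The NCYC3290 value was -0.42 and not called with library totals. At 30 min none was called, with -0.26, -0.40 and -0.12.

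ALD6 encodes the cytosolic acetaldehyde dehydrogenase. BY4743 held 1866, 1807 and 1837 CPM at T0, 7732, 8255 and 7948 CPM at 30 min and 2195, 2873 and 2675 CPM at 3 h. BC187 held 1622, 1546 and 2336 CPM at T0, 2403, 2189 and 2743 CPM at 30 min and 2420, 2704 and 2661 CPM at 3 h. In BY4743 the 30 min libraries stood far above the others and the 3 h libraries did not overlap T0, whereas the BC187 ranges at 30 min and 3 h overlapped. In YPS128 the libraries held 1501, 1059 and 1986 CPM at T0, 1934 and 521 CPM at 30 min and 969, 1081 and 925 CPM at 3 h, with 1 of the 2 at 30 min inside the T0 range and the other below every other library. The log2 values of ALD6 at 30 min were 0.39 ± 0.33 (adjusted p = 0.385), 0.43 ± 0.33 (adjusted p = 0.349) and -0.03 ± 0.38 (adjusted p = 0.974), none of them called, and in YPS128 at 3 h the change was -1.36 ± 0.33 (adjusted p = 0.000651). Its YPS128 step from 30 min to 3 h, -1.33 ± 0.37 (adjusted p = 0.00271), turned to 0.06 without the replicate 1 libraries, and with library totals neither it nor the 3 h value was called, at -0.30 and -0.56. MST27, a membrane protein of vesicle formation, had 60.6% of its 100-base windows unique in the reference, so that reads from a near copy could be split or lost, and its wild libraries held 0 to 3.05 CPM. Of the 85 members with a location in the reference, 83 had every window unique and HSP82 had 99.3%. YGL052W, an ID with no gene model in RefSeq, had 0 counts in all 9 BC187 libraries and 2.54 to 4.55 CPM at T0 in BY4743.

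The 13 members that by the ratio above were high in 1 BY4743 library only were YFL013W-A, YOR082C, YBR134W, VAR1, AI5_ALPHA, IOC4, FIG1, YGR107W, NPP2, AQY1, YMR030W-A, VPS41 and PEX35. In PEX35, YFL013W-A and YMR030W-A the remaining 30 min libraries were also above every T0 and 3 h library, at 39.4 and 45.1 CPM in PEX35. IOC4, a subunit of a chromatin remodeler, stood at 36.8, 24.2 and 39.2 CPM at T0, 1671, 58.4 and 28.0 CPM at 30 min and 31.4, 26.7 and 39.4 CPM at 3 h. YFL013W-A, with no gene model in RefSeq, stood at 0.193, 0.182 and 0.701 CPM at T0 and 410.1, 1.68 and 2.07 CPM at 30 min. For both, the replicate 1 library was far above every other library. VAR1 and AI5_ALPHA are mitochondrial, and AI5_ALPHA overlaps COX1 and the introns AI1 to AI4 on the same strand, so reads there cannot be assigned to 1 of them. In the wild strains PEX35 was called at 30 min in BC187 and NCYC3290, at 1.01 ± 0.40 (adjusted p = 0.0491) and 1.23 ± 0.40 (adjusted p = 0.0199), the former just inside the threshold and outside it with library totals, at 1.05. AQY1, a water channel of spores, was called higher at 3 h in BC187, with 3, 0 and 1 counts at T0 and 32, 37 and 24 counts at 3 h, and in YPS128, with 9, 8 and 4 counts at T0 and 71, 100 and 82 counts at 3 h. What set that library apart was not tested.

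The wild strains were compared with each other through the difference of their changes. At 30 min, 17 members rose more, or fell less, in BC187 than in YPS128 and 0 the reverse, against 3.06% and 1.01% of all genes. At 3 h the direction was the opposite, with 28 members lower and 2 higher in BC187 than in YPS128, against 9.9% and 15.5%. NCYC3290 and YPS128 differed in 1 member at 30 min (0.366% higher, 0.0831% lower over all genes) and in 15 lower and 2 higher at 3 h (3.99% and 4.19%). BC187 and NCYC3290 differed in 4 higher and 0 lower at 30 min (1.26% and 0.565%) and in 1 higher and 3 lower at 3 h (3.44% and 2.28%). These counts depended on the replicates. Between BC187 and YPS128, 3 members differed at 30 min without the replicate 1 libraries and 11 without replicate 3, and at 3 h 11 differed without replicate 1 and 18 without replicate 2. Between NCYC3290 and YPS128 at 3 h, 5, 9 and 2 differed without replicates 1, 2 and 3 in turn, and at 30 min 0, 2 and 1. Between BC187 and NCYC3290, 2, 1 and 1 differed at each time.

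MGA1 had the largest called difference at 30 min between YPS128 and each other wild strain, 3.92 ± 0.48 (adjusted p = 2.62e-06) between BC187 and YPS128 and 3.04 ± 0.48 (adjusted p = 0.000281) between NCYC3290 and YPS128 on the log2 scale. BTN2 rose more in BC187 than in NCYC3290 at 30 min, by 2.27 ± 0.52 (adjusted p = 0.0123). SIS1 rose more in BC187 than in NCYC3290 at 30 min and 3 h, by 1.48 ± 0.30 (adjusted p = 0.00417) and 1.14 ± 0.30 (adjusted p = 0.0199). At 3 h HSP82 was lower relative to T0 in NCYC3290 than in YPS128, at -2.76 ± 0.41 (adjusted p = 5.08e-05). SCM3 was lower in BC187 than in YPS128, at -1.70 ± 0.29 (adjusted p = 8.54e-05). YGL052W gave 6.26 ± 1.63 (adjusted p = 0.0186) at 3 h between NCYC3290 and YPS128, but its libraries there held at most 1.25 CPM.

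**Figure D5:**
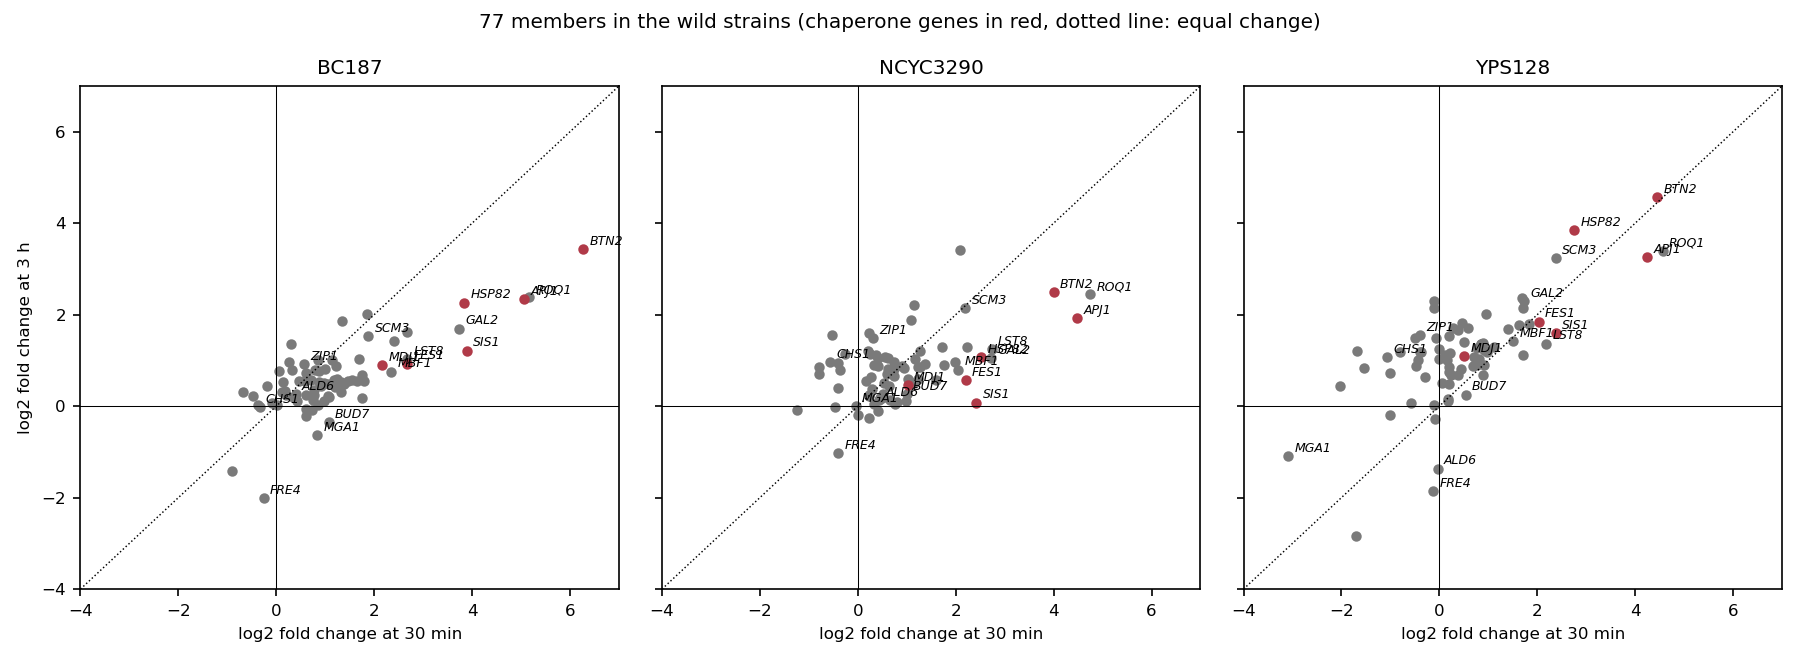
Log2 fold change at 3 h against that at 30 min for the 77 members that did not rest on 1 BY4743 library, in each wild strain, with the 6 chaperone genes in red and a dotted line where both are equal. In BC187 the chaperone genes lie below the line, while in YPS128 HSP82 lies above it at 2.75 and 3.84 and MGA1 lies at the far left at -3.08.

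The members were also set against 23 pathway lists of 13 to 63 genes each. Of these lists, 10 held 1 or more members, with 19 members in at least 1 list and 71 in none. The share of all genes in the lists was not computed, so these counts are no result about the members. Lists of Hog1 targets, Hog1 signalling genes, trehalose and glycogen genes, antioxidant genes and the proteasome held 0 members. The lists that held 2 members were stress transcription factors (SMP1 and CAD1), autophagy (ATG3 and ATG21), meiosis and sporulation (ZIP1 and MSH4) and nonfermentable carbon and peroxisomal oxidation (MDH2 and CIT2). For reading the counts below, 18.4%, 16.2% and 8.59% of all genes tested were higher at 30 min in BC187, NCYC3290 and YPS128, and 30.4%, 32.2% and 35.7% at 3 h. Of 32 tested autophagy genes, 12 were higher and 5 lower at 30 min for BC187, 7 and 2 for NCYC3290 and 4 and 2 for YPS128, and at 3 h 25, 23 and 26 were higher and 0, 0 and 1 lower. Of 42 tested carbon genes, 28, 22 and 10 were higher at 30 min and 34, 35 and 38 at 3 h, while 0 were lower at 30 min and 0, 2 and 2 at 3 h. Of 60 tested meiosis and sporulation genes, 26, 23 and 12 were higher and 0, 1 and 1 lower at 30 min, and 45, 47 and 52 were higher and 1, 1 and 2 lower at 3 h. In each of these 3 lists the median change was larger at 3 h than at 30 min in every wild strain, for example 1.14 against 0.01 for autophagy in BC187. Of 38 stress transcription factors, 14, 9 and 4 were higher and 7, 10 and 5 lower at 30 min, and 17, 18 and 23 were higher and 8, 4 and 6 lower at 3 h.

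Among other motifs in the same 300 bases, most were near the background. The stress response element AGGGG lay in 20 of 83 promoters of 300 bases, or 24.1%, against 22.2% of all. The Yap1 element TTACTAA lay in 8, or 9.64%, against 7.82%, and TGACGT, part of the site bound by Sko1, in 8, or 9.64%, against 7.23%. The letters CACAAA, part of the middle sporulation element of Ndt80, lay in 25, or 30.1%, against 19.1%, with 18 of them among the 55 genes that did not rise at 30 min in all wild strains. Each motif was searched on both strands. Members lay on 14 of the 17 chromosomes including the mitochondrial one, with 14 on chromosome IV, 11 on XIV and 10 on VII, and 0 among 95 genes on I, 291 on VIII and 317 on XI. Besides SIS1 and LST8, MBF1 and BUD7 are divergent neighbours on chromosome XV with 749 bases between them, and MNT4 and FRE4 lie next to each other on XIV on the same strand.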

How the data were processed

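Raw counts per gene were deposited by the authors for 35 libraries of total RNA depleted of ribosomal RNA, one table of 6717 genes. Reads had been trimmed with Trimmomatic, aligned with bwa-mem to the S288c reference and counted with HT-Seq by the authors, and the strand setting and the treatment of reads that fit several places are not given in the sources used here. Library totals ranged from 3629637 to 5866906 counts. No column of another sample was found. Samples were grouped by the strain and time in their labels, and T0 was taken before NaCl.

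CPM and log2(CPM + 1) were computed from column totals with pandas 2.3.3 for the rule and the levels. Tests were run in R 4.3.3 with edgeR 4.0.16: TMM factors (0.632 to 1.55), filterByExpr (6019 genes kept), a robust quasi-likelihood fit of 12 groups plus a replicate block over all 35 libraries, and Benjamini-Hochberg adjustment over all genes tested at 0.05. The biological coefficient of variation was 15.5%. The replicate block follows from the strains having been grown in parallel for each replicate. Same-numbered libraries of different strains deviated together in 18 of 18 pairs at T0, 5 of 15 at 30 min and 17 of 18 at 3 h (correlation over 0.1), so the pairing was weak at 30 min. P-values measure the spread between these cultures. YPS128 has 2 libraries at 30 min and no sample was imputed.

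The members and gene lists were chosen with earlier results of these data known. The genes named were the 20 members with the largest rise in BY4743, up to 4 members of each list with 2 or more, the 3 largest rises and 3 largest falls past the threshold in each wild strain and time, the member with the largest difference between each pair of wild strains, the nearest genes at each limit of the rule and the 10 members with the highest mean CPM. JID1, PHO2, GPA2, SNX41, LST8 and SLX5 fall outside this rule and were chosen after their values were seen, and other genes are named without values as members of a counted set. Gene positions and upstream sequence came from RefSeq R64, in which 6025 of the 6717 IDs were found. The authors' build was a release of the same S288c assembly, and as the count table holds no coordinates, all positions are those of RefSeq. Alternatives were DESeq2 1.42.0 size factors and Wald test, library totals, no filter, no block, a block by culture, 34 libraries without YPS128 replicate 3 at 3 h, each replicate left out, and other pseudocounts and CPM limits for the rule. Leaving out the 13 members high in 1 library, keeping the members found without BY4743 replicate 1, and applying the rule to the wild strains with TMM factors were added after seeing the data.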

Additional observations from a re-analysis of the deposited data

Results flagged for a closer look

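The response of some members differed between wild strains by the test of the difference itself, in edgeR's quasi-likelihood fit with Benjamini-Hochberg adjustment. BC187 and NCYC3290 differed in 4 members at 30 min, against 1.26% higher and 0.565% lower of all genes. They differed in 4 at 3 h, where 1.11% of members were higher and 3.33% lower, near the 3.44% and 2.28% of all genes. BC187 and YPS128 differed in 17 members at 30 min (3.06% and 1.01%) and 30 at 3 h (15.5% and 9.9%). NCYC3290 and YPS128 differed in 1 member at 30 min (0.366% and 0.0831%) and 17 at 3 h (4.19% and 3.99%). Brackets give the shares of all genes higher and lower in the first strain.

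Of single genes, BTN2 rose more at 30 min in BC187 than in NCYC3290, by 2.27 on the log2 scale. SIS1 rose more at 3 h in BC187 than in NCYC3290, by 1.14. MGA1 stood out at 30 min, with a difference of 3.92 between BC187 and YPS128 and of 3.04 between NCYC3290 and YPS128. SCM3 rose less at 3 h in BC187 than in YPS128, with a difference of -1.70. YGL052W gave 6.26 at 3 h between NCYC3290 and YPS128, a fitted value that rests on libraries of at most 1.25 CPM and is no bound.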

How the results depend on the processing

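The fits are limited by 2 to 3 libraries per group, by a scale that moves the later time point, and by 1 BY4743 library that carries 13 members. Counts of members called in 1 strain were within 1.5 times of the reported value under every alternative but 3. Without replicate 3, 29 members changed at 3 h in BC187. With library totals, 72 changed from 30 min to 3 h in YPS128. Among the 52 members that the rule kept without BY4743 replicate 1, a setting added after seeing the data, 30 of them changed from 30 min to 3 h in YPS128. These were 24 higher and 6 lower, against 39 and 7 of the 90. This last count was lower because the set was smaller, and as a share it was not lower. Taken apart, higher and lower calls moved more. With library totals, the step from 30 min to 3 h had 39 members higher and 11 lower in NCYC3290, against 19 and 27. In BC187 it had 13 and 25, against 5 and 40.

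Counts of members that differed between strains were less stable. For BC187 against NCYC3290 at 30 min they were 1 with library totals, 7 with DESeq2's Wald test and 2 with no replicate block, and at 3 h they were 7 with library totals, 1 with no replicate block and 2 with the block by culture. For BC187 against YPS128 they were 11 at 30 min with no replicate block and 11 with the block by culture, and 48 at 3 h with library totals. For NCYC3290 against YPS128 at 30 min they were 6 with DESeq2's Wald test, 2 with no filter, 2 with the block by culture and 2 with 34 libraries, and at 3 h they were 10 with no replicate block and 10 with 34 libraries. The replicate block changed no other count by over 1.5 times. The cause of these shifts was not tested.

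Leaving out each replicate number in turn gave 47 to 55 members changed at 30 min, 29 to 45 at 3 h and 38 to 43 between them in BC187, 35 to 42, 49 to 52 and 39 to 42 in NCYC3290, and 28 to 33, 62 to 73 and 33 to 47 in YPS128. Members that differed numbered 1 to 2 at 30 min and 1 to 2 at 3 h for BC187 against NCYC3290, 3 to 14 and 11 to 23 for BC187 against YPS128, and 0 to 2 and 2 to 9 for NCYC3290 against YPS128. The rule returned 66 to 266 genes without 1 BY4743 replicate. With TMM factors, the rule applied to NCYC3290 returned 4 genes.

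The step from 30 min to 3 h turned positive with library totals for MDJ1 (0.0265), CAD1 (0.0703), SMP1 (0.53) and SCM3 (0.53) in NCYC3290 and for SIS1 (0.10), FES1 (0.71), BUD7 (0.61) and MBF1 (0.81) in YPS128, and without replicate 1 for ALD6 in YPS128 (0.0643, against -2.25 without replicate 2). These tallies cover the genes named by rule, in the changes within each wild strain under every alternative. Of these values, 3493 kept their side of the threshold, 71 passed it, 90 lost it and 9 changed sign with a call in at least 1 of the compared fits. A change of sign with no call in either fit was counted among the 3493.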
